A study of Mus musculus with 14 samples.

Results

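The genes described here encode ligands and receptors of the tumor necrosis factor (TNF) superfamily and the Traf adaptor proteins, measured on oligonucleotide arrays of mouse spleen cells. Members were all probe sets annotated to 1 gene symbol that begins with Tnfsf, Tnfrsf or Traf followed by a digit, together with Tnf, Lta, Ltb, Ltbr, Cd40, Cd40lg, Cd27, Cd70, Fas, Fasl and Ngfr. The rule gave 62 probe sets of 41 genes, out of 36899 probe sets and 15965 genes with a probe set of their own. By role there were 12 ligand genes, 21 receptor genes, 5 Traf genes and 3 genes of the rule, Traf3ip1, Traf3ip2 and Traf3ip3, whose products bind Traf3. The study compared spleen cells enriched for follicular dendritic cells (FDC), called FDC-E, with spleen cells depleted of them, called FDC-D. The sources used here do not give the strain, age or treatment of the animals or the way the cells were enriched. The 14 arrays were of 3 designs, called sets A, B and C after the letter in the labels. Sets A and C carried FDC-D samples 1 and 2 and FDC-E samples 1, 2 and 3, and set B carried FDC-D 1 and 2 and FDC-E 2 and 3. Whether replicates of a fraction are separate animals is not labelled. Each p-value sets the difference between the fractions against the spread within them, estimated partly from the other probe sets of the array set. That spread may be only technical.

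Ligands of the TNF superfamily are mostly trimeric membrane or secreted proteins that bind receptors with cysteine-rich extracellular domains. Receptors without a death domain recruit Trafs, which pass the signal to the NF-kB and kinase pathways, whereas those with a death domain can also start apoptosis. In the spleen, B cells supply lymphotoxin and TNF, and stromal precursors that receive them through Ltbr and Tnfrsf1a form and maintain the FDC network. The same family also carries B cell survival signals (Tnfsf13b, known as BAFF, and its receptors) and T cell costimulation (Cd27, Tnfrsf4, Tnfrsf9, Tnfrsf18).

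The fractions differed in their cell markers as labelled, and in those of other cells. The marker lists were chosen with earlier results of these data known, so their counts do not test the labels. All 8 tested FDC markers, among them Cxcl13, Clu and Coch, rose in FDC-E (limma, adjusted p under 0.05), with summed intensities of 9 markers on set A of 3730 and 4078 in FDC-D and 19730 to 23080 in FDC-E. All 11 tested endothelial markers also rose, as did 8 of 9 fibroblast and reticular cell markers and 8 of 10 macrophage markers. Of the lymphocyte markers, 9 of 10 for B cells, all 10 for T cells and all 5 for NK cells fell. Some markers were bright enough for the test in 1 fraction alone and so had to differ, namely 4 of the 8 FDC, 6 of the 11 endothelial, 5 of the 9 fibroblast and reticular cell and 1 of the 10 macrophage markers in FDC-E, and 5 of the 10 T cell and 2 of the 5 NK cell markers in FDC-D. Of those bright enough without that, 4 of 4 FDC, 5 of 5 endothelial, 3 of 4 fibroblast and reticular cell and 7 of 9 macrophage markers rose, and 5 of 5 T cell and 3 of 3 NK cell markers fell. Kdr, 1 of those 5 endothelial markers, was bright enough on 1 FDC-D array, so it too was tested only through its FDC-E arrays. Cr2 and Fcgr2b, counted below with genes that respond in stroma or mark FDC, were not on the FDC marker list. Cr2 fell (log2 fold change -0.42, limma adjusted p = 0.017) and Fcgr2b did not pass (-0.09). Array medians on set A were 244 and 250.8 in FDC-D and 264.7 to 279 in FDC-E, an offset that the deposited scale keeps. In such bulk RNA, fewer cells of a type and less RNA per cell cannot be told apart.

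More member probe sets fell than rose in FDC-E. Values below are linear intensities as deposited. Fold changes and tests were made within a set on log2(intensity + pseudocount) with limma, and a probe set is said to rise or fall where its Benjamini-Hochberg adjusted p was under 0.05. Probe sets not above the array's 40th percentile on at least 2 arrays were too dim for this test. On set A, 27 of 41 member probe sets were bright enough to be tested, and 5 rose and 10 fell. The share that rose, 18.5%, stood beside 23.1% of all tested probe sets of the set, and the share that fell, 37.0%, beside 17.9%. On set B, 10 of 12 were tested. There 1 of 10 rose, beside 19.4% of all tested probe sets, and 3 of 10 fell, beside 17.0% of all. The falls included both probe sets of Traf3ip3. On set C, 3 of 9 were tested and none passed with limma in either direction, also at an unadjusted p under 0.05, beside 9.50% of all probe sets rising and 8.73% falling. These shares describe the members that could be tested and were not themselves tested. The set A split between rises and falls moved to 3 and 11 under quantile normalization and also under scaling to the median array, which lowered the median log2 fold change of all probe sets by 0.096 and by 0.112. With no filter on dim probe sets the set A split was nearly even, at 6 rises and 7 falls of 40. Leaving out FDC-D sample 1 left 3 rises and 5 falls on set A, leaving out FDC-D sample 2 left 3 and 4, and leaving out FDC-E sample 3 left 3 and 7. The median log2 fold change of tested members was -0.06 on set A, where that of all tested probe sets was 0.02.

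**Figure D1:**
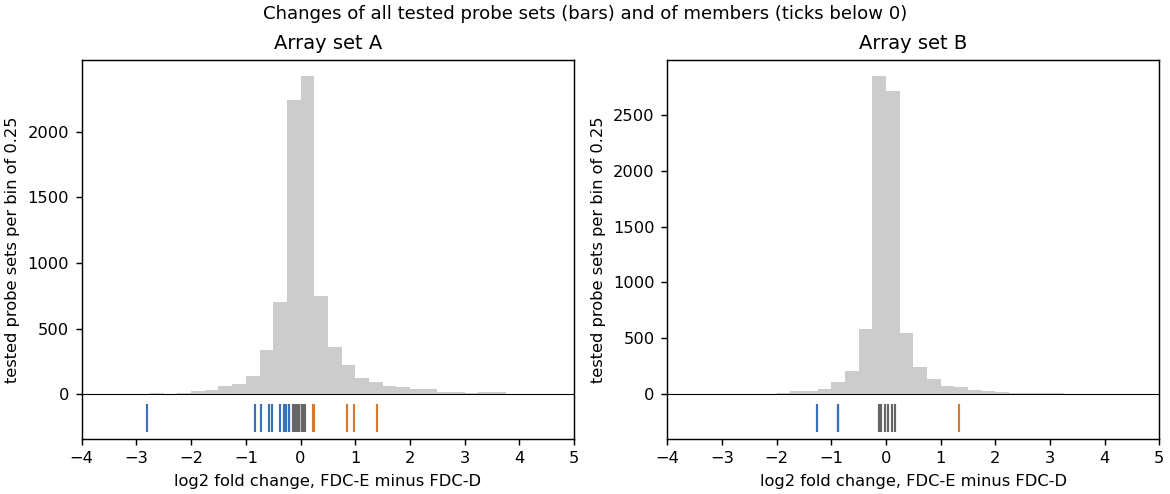
Number of tested probe sets (vertical axis) by log2 fold change of FDC-E minus FDC-D (horizontal axis, bins of 0.25) on set A (left) and set B (right). Ticks under the bars are the 27 and 10 tested member probe sets, orange for rises, blue for falls and grey for those that did not pass; the tick farthest left on set A is Ltb at -2.80.

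Counted by gene, with the brightest tested probe set standing for each, 6 genes rose, 10 fell and 15 did not pass. Shares over all genes were not computed, so these counts have no background and do not set the family apart. The remaining 10 genes had no probe set in the main test, since 9 were too dim and Fas was measured only by a dim probe set and by an array control. The groups of all 19 passing probe sets did not overlap, which held for 100% of the 3240 probe sets that passed on set A and of the 2838 on set B, and so says nothing about the members. Only 2 of the tested probe sets, those of Fasl and 1 of 2 for Traf3ip3, passed the filter through the FDC-D arrays alone, so they could be tested only because they were high there.

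**Figure D2:**
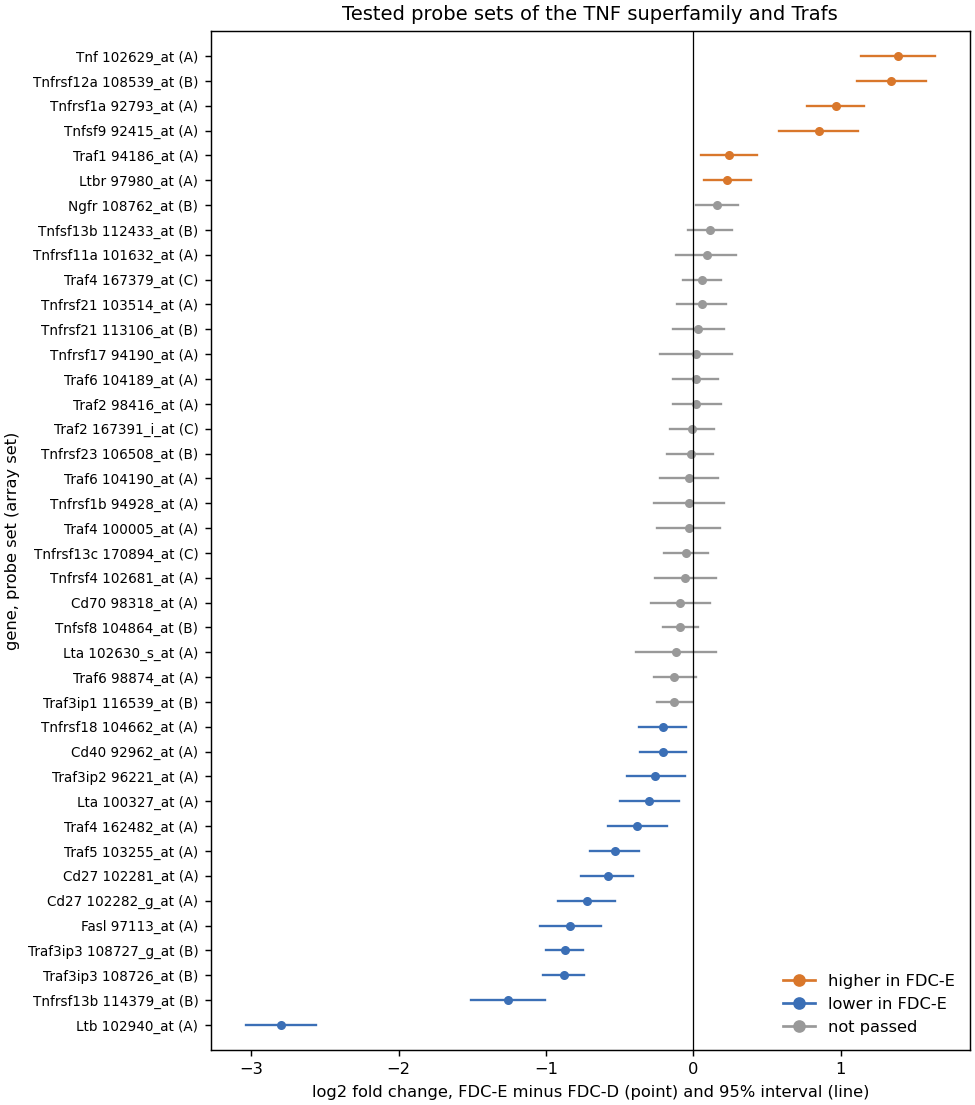
Log2 fold change of FDC-E minus FDC-D on the log2(intensity + pseudocount) scale (points) with its 95% interval from limma (lines) for the 40 tested member probe sets, with the array set in parentheses. Rises are orange, falls blue and probe sets that did not pass grey; Ltb lies at -2.80 and Tnf at 1.39, and most others lie between -1 and 1.

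Among the ligands, Ltb fell most. Ltb encodes lymphotoxin beta, which anchors lymphotoxin alpha at the surface of lymphocytes in the ligand for Ltbr. Its intensity was 5388 and 5199 in FDC-D samples 1 and 2 and 685.9, 777.9 and 602 in FDC-E samples 1, 2 and 3. Every FDC-D value was thus far above every FDC-E value, and Ltb fell 6.95-fold (log2 fold change -2.80, SE 0.104, limma adjusted p = 3.97e-07). Lta encodes lymphotoxin alpha and fell much less at its brighter probe set, from 449.9 and 526.8 to 348.9, 390.1 and 401.2 (log2 fold change -0.30, adjusted p = 0.0258). That call was lost without FDC-D sample 2 (adjusted p = 0.249). The other Lta probe set, with 349.6 and 348.2 in FDC-D and 387.6, 273.9 and 289.4 in FDC-E, overlapped between the groups and did not pass (adjusted p = 0.464), but passed without FDC-E sample 1 (adjusted p = 0.0134). The 9 B cell markers on set A summed to 26280 and 26510 in FDC-D and 7952 to 10360 in FDC-E, and 9 T cell markers to 7713 and 7160 against 1936 to 2048. None of these markers was at 0, and their part in the fall of Ltb was not tested.

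Tnf, the founding cytokine of the family, moved the other way. Its intensity was 686.6 and 567.4 in FDC-D and 1633, 1761 and 1968 in FDC-E. The lowest FDC-E value was above 2-fold the higher FDC-D value, and Tnf rose 2.62-fold (log2 fold change 1.39, SE 0.107, adjusted p = 1.92e-05). Macrophages are a known source of TNF, and 9 of their markers on set A summed to 8351 and 10090 in FDC-D and 20130 to 22960 in FDC-E, a difference whose part in the rise of Tnf was not tested. Ltb, Tnf and Lta are immediate neighbours on chromosome 17 in the RefSeq annotation of GRCm38.p6, with no other protein-coding gene between them. These 3 adjacent genes were therefore lower, higher and slightly lower in FDC-E.

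**Figure D3:**
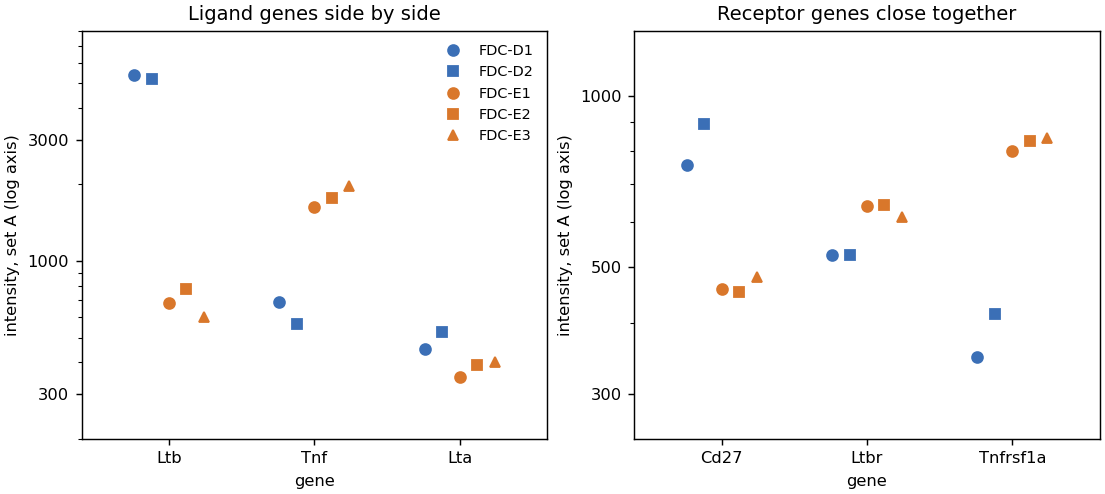
Intensity on each set A array (log axis) of the neighbouring ligand genes Ltb, Tnf and Lta (left) and of the receptor genes Cd27, Ltbr and Tnfrsf1a (right), 1 point per array, FDC-D blue and FDC-E orange. Ltb drops from at least 5199 to at most 777.9 and Tnf climbs from at most 686.6 to at least 1633, while Cd27 is lower and Tnfrsf1a and Ltbr are higher in FDC-E (Ltbr lost its call without some single arrays).

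The promoter windows of the members with the largest changes are shown to set these falls and rises beside the sequence NF-kB binds. Each is 300 bases from RefSeq on GRCm38.p6, 250 before to 50 after the annotated start, 5′ to 3′ on the strand of the gene. Capitals mark a kB-like match, defined as GGG, any 2 bases, and then TTTCC or TTCCC, searched on both strands. The windows lie at chr17:35194257-35194556 on the plus strand for Ltb, chr11:61126505-61126804 on the plus strand for Tnfrsf13b, chr17:35201958-35202257 on the minus strand for Tnf and chr17:23677400-23677699 on the minus strand for Tnfrsf12a.
Ltb: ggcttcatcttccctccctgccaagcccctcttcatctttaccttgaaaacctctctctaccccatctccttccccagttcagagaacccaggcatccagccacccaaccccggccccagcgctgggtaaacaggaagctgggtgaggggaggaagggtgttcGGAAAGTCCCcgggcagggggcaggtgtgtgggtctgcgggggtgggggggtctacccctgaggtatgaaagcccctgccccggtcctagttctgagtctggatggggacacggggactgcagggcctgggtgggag
Tnfrsf13b: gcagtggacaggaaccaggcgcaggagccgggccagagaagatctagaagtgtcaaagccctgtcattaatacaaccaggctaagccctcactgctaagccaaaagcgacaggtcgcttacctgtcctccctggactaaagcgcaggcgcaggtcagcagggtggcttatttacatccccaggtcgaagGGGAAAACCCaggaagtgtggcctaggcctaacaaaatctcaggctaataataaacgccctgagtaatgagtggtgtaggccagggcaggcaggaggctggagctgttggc
Tnf: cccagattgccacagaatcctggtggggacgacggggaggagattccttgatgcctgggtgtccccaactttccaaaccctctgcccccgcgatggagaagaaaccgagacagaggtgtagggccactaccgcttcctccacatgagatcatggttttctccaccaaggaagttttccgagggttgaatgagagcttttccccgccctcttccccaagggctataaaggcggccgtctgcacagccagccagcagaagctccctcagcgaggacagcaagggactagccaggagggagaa
Tnfrsf12a: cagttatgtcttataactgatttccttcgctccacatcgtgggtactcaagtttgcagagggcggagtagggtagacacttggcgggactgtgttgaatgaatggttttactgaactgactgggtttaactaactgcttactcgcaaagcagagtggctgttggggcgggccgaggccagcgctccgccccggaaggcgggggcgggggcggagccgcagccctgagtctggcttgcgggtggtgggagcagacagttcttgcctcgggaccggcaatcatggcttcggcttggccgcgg
Among the members, Ltb fell most on set A and Tnfrsf13b on set B. Each had 1 match on the strand opposite to the gene, while the windows of Tnf and Tnfrsf12a held no such letters. The windows searched of the other genes counted as falling, Lta, Fasl, Cd27, Tnfrsf18, Traf5 and Traf3ip3, held none either. Those of Tnfrsf1a, Ltbr and Traf1, which rose, also held none. Of 36 windows of 33 member genes, 4 held a match (11.1%), beside 3.24% of all 32851 windows. The other matches were in Tnfrsf9, which had 2 overlapping ones, and Traf2. Neither gene had a passing probe set. The windows searched did not include those of Cd40, Cd40lg, Cd70, Tnfrsf11b, Tnfrsf22, Tnfsf4, Tnfsf9 and Traf3ip2. A match is one of letters only, and does not show binding. Sequence outside the windows was not searched, so a window without a match does not show that the gene lacks such sites.

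Tnfsf9, the CD137 ligand of antigen-presenting cells, rose as well. It measured 219.1 and 189.2 in FDC-D and 359.7, 479.2 and 482.8 in FDC-E, with the groups apart (1.80-fold, log2 fold change 0.85, SE 0.116, adjusted p = 0.000548). Its immediate neighbour in the annotation, Cd70, which encodes the ligand of Cd27, averaged 693.3 ± 17.5 (SD, n = 2) in FDC-D and 646.4 ± 57.4 (SD, n = 3) in FDC-E and did not pass (adjusted p = 0.445).

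Fasl, the death ligand of cytotoxic T and NK cells, fell from 204.8 and 262.2 to 95.38, 85.6 and 92.05. All FDC-E values lay below the filter level of the array, and the fall was 1.79-fold (log2 fold change -0.84, SE 0.089, adjusted p = 0.000126). It was not tested without either FDC-D sample, when too few arrays lay above the filter, or with a filter on the mean over all arrays, which it did not pass. The 5 NK cell markers on set A, 1 of them too dim to be tested, summed to 3114 and 3488 in FDC-D and 821.9 to 1050 in FDC-E, and their part was not tested.

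The B cell survival factor Tnfsf13b did not pass. It measured 283.5 and 287.4 in FDC-D and 295.8 and 333.9 in FDC-E on set B, where the FDC-E values were slightly above (log2 fold change 0.11, 95% interval -0.04 to 0.26, adjusted p = 0.232). Its probe set on set C was dim, at 29.5 to 33.34 on the 5 arrays, and the groups overlapped. Tnfsf8, the CD30 ligand, did not pass on set B (adjusted p = 0.233).

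Of the dim ligands, Tnfsf4, the ligand of the costimulatory receptor Tnfrsf4, differed most. Its values were 44.59 and 37.92 in FDC-D and 87.66, 113.5 and 85.65 in FDC-E, so the groups were apart but all arrays lay below the filter. With no filter it passed, 1.42-fold up (log2 fold change 0.50, SE 0.073, adjusted p = 0.000848), on a scale that understates changes of dim probe sets. Tnfsf11 (RANKL), a cytokine that acts on osteoclasts and in lymph node development, was likewise dim, with 97.04 and 104 in FDC-D and 73.43, 88.36 and 67.47 in FDC-E. With no filter it narrowly missed the threshold (log2 fold change -0.20, adjusted p = 0.0525). Cd40lg, of activated helper T cells, and the death ligand Tnfsf10 were dim on every set that carried them. With no filter Cd40lg had an adjusted p of 0.141, and the Tnfsf10 probe sets on sets A, B and C had 0.351, 0.133 and 0.293.

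Among the receptors, Tnfrsf12a and Tnfrsf1a rose most. Tnfrsf12a (Fn14), the receptor for the cytokine TWEAK, known from injured and growing tissue, measured 245.8 and 252.3 in FDC-D and 656.4 and 871.7 in FDC-E on set B. It rose 2.54-fold (log2 fold change 1.34, SE 0.104, adjusted p = 4.68e-06), with the FDC-E arrays further from each other than the FDC-D arrays. Tnfrsf1a, the TNF receptor with a death domain that FDC need to form, measured 347.7 and 413.7 in FDC-D and 799.8, 832.3 and 845 in FDC-E. Those 3 values were close together and all above FDC-D, and it rose 1.95-fold (log2 fold change 0.97, SE 0.083, adjusted p = 3.69e-05). A second Tnfrsf1a probe set was dim, with 95.82 ± 11.4 (SD, n = 2) in FDC-D and 83.28 ± 12.5 (SD, n = 3) in FDC-E, and did not show this (adjusted p = 0.371 with no filter). The other TNF receptor, Tnfrsf1b, which lacks a death domain, measured 733.7 and 807.7 in FDC-D and 651.8, 825.3 and 785.2 in FDC-E. Its groups overlapped, with a log2 fold change of -0.03 and a 95% interval of -0.27 to 0.21. The difference between the changes of these 2 receptors was not tested.

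Ltbr, through which lymphotoxin acts on stroma, rose slightly. It measured 525.5 and 526.7 in FDC-D and 640, 643.9 and 612.4 in FDC-E, a 1.17-fold rise (log2 fold change 0.23, SE 0.068, adjusted p = 0.0276). The call was lost without FDC-D sample 1 (adjusted p = 0.171), FDC-D sample 2 (0.166), FDC-E sample 2 (0.0549) or FDC-E sample 3 (0.0563) and under both other scalings (0.203 and 0.27). In the annotation Cd27, Ltbr and Tnfrsf1a lie close together on chromosome 6, with 1 other protein-coding gene between each pair. Of these 3, Cd27 fell and the other two rose. On set A, 8 endothelial markers summed to 1560 and 1602 in FDC-D and 16770 to 18890 in FDC-E. These and the macrophage markers given beside Tnf rose on the same arrays as Ltbr and Tnfrsf1a, and their part was not tested.

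Fas, the death receptor that Fasl binds, was higher in FDC-E at every probe set. It was measured on all 3 designs by the control probe set AFFX-MurFAS_at and on set A by a dim probe set of its own. The control measured 136.6 and 129.4 in FDC-D and 179.9, 185.5 and 205.3 in FDC-E on set A. On set B it measured 257.1 and 224.6 in FDC-D and 279.5 and 357 in FDC-E. On set C the FDC-D values were 453.1 and 465.5 and the FDC-E values 548.1, 511.5 and 577.2. The FDC-E values were thus above the FDC-D values on each set, though the sets hybridised the same numbered samples and are not independent. Array controls were outside the main test. When they were kept, the control passed on set B (log2 fold change 0.31, adjusted p = 0.0308) and set C (0.22, adjusted p = 0.0379) and lay below the filter on set A. The dim probe set had 42.14 and 40.74 in FDC-D and 74.33, 72.74 and 76.47 in FDC-E and passed with no filter (log2 fold change 0.33, adjusted p = 0.000594).

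**Figure D4:**
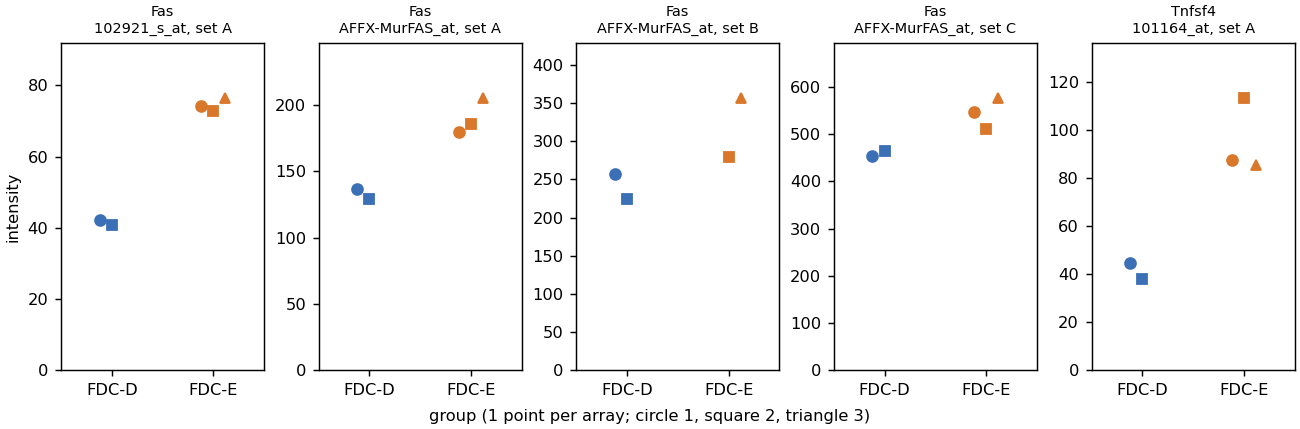
Intensity (linear axis from 0, a scale of its own in each panel) on each array for the 4 Fas measurements and for Tnfsf4, which were outside the main test, FDC-D blue and FDC-E orange. In each panel the lowest FDC-E point lies above the highest FDC-D point, for the dim Fas probe set at 72.74 against 42.14.

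The receptors that fell, Tnfrsf13b, Cd27, Cd40 and Tnfrsf18, are known from lymphocytes. Tnfrsf13b (TACI), a B cell receptor for Tnfsf13b, had 1148 and 1139 in FDC-D and 507.9 and 364.6 in FDC-E on set B. The FDC-D values were nearly equal and the FDC-E values far below them, a 2.39-fold fall (log2 fold change -1.26, SE 0.112, adjusted p = 1.25e-05). Of the other receptors for that ligand, Tnfrsf13c (the BAFF receptor of mature B cells) averaged 313.1 ± 20.5 (SD, n = 2) and 299.9 ± 20.5 (SD, n = 3) on set C, with a 95% interval of the log2 fold change of -0.20 to 0.10. Tnfrsf17, of plasma cells, averaged 288.9 ± 5.38 (SD, n = 2) and 295.6 ± 50.8 (SD, n = 3) on set A, with an interval of -0.23 to 0.26. Of the 3 receptors, Tnfrsf13b was thus the one to pass. The B cell markers had a median log2 fold change of -1.69 over the 10 tested, and their part in the fall of Tnfrsf13b was not tested.

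Cd27, a costimulatory receptor of T cells, fell at both probe sets. The brighter one had 756.1 and 894 in FDC-D and 459.1, 452.1 and 480.8 in FDC-E (1.65-fold, log2 fold change -0.72, SE 0.085, adjusted p = 0.000231), and the other, with 483.9 and 505.6 in FDC-D and 324.9, 281.9 and 295.9 in FDC-E, fell as well (log2 fold change -0.58, adjusted p = 0.000361). The summed T cell markers given beside Ltb were lower in FDC-E as well, and their part was not tested. Tnfrsf18 (GITR), of regulatory T cells, fell from 798.9 and 761.8 to 663.3, 660.1 and 670.2 (log2 fold change -0.21, adjusted p = 0.0448), a call lost without FDC-D sample 1 (adjusted p = 0.296), FDC-D sample 2 (0.158), FDC-E sample 2 (0.0734) or FDC-E sample 3 (0.107), with no filter on dim probe sets (0.0571) and with adjustment over all 3 sets (0.0539). Its neighbour Tnfrsf4 (OX40) did not pass (log2 fold change -0.06, 95% interval -0.26 to 0.15). Cd40, through which B cells receive T cell help and which FDC also carry, had 297.6 and 309.6 in FDC-D and 240, 265 and 250.4 in FDC-E (log2 fold change -0.21, adjusted p = 0.0425). That call was lost without FDC-D sample 1 (0.169), FDC-D sample 2 (0.274) or FDC-E sample 3 (0.109), with no filter (0.0634) and with adjustment over all 3 sets (0.0514).

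Other receptors showed no passing change. Ngfr, a neurotrophin receptor found on some FDC, averaged 214 ± 8.68 (SD, n = 2) in FDC-D and 249.6 ± 17.5 (SD, n = 2) in FDC-E on set B, with non-overlapping values but an adjusted p of 0.0666, and passed without FDC-E sample 2 (0.0295). Tnfrsf11a (RANK) had 197.7 and 213 in FDC-D and 257.2, 208 and 207.4 in FDC-E, where FDC-E sample 1 alone was clearly higher (adjusted p = 0.488). Tnfrsf21 (a death-domain receptor) on sets A and B and the decoy receptor Tnfrsf23 on set B had log2 fold changes of 0.06, 0.03 and -0.02. Tnfrsf11b (the decoy receptor osteoprotegerin), Tnfrsf19, Tnfrsf22, Tnfrsf8 (CD30) and Tnfrsf9 (CD137) were below the filter at every probe set. With no filter none of their 8 probe sets passed, the lowest adjusted p being 0.138 for Tnfrsf11b.

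Set side by side, ligands and their receptors showed both like and opposite directions. Tnf and its receptor Tnfrsf1a rose, with log2 fold changes of 1.39 and 0.97, while its other receptor Tnfrsf1b did not pass (-0.03) and the dim second probe set of Tnfrsf1a had -0.10 with no filter. Fasl, tested only because it was high in FDC-D, fell, while Fas, which was outside the main test, was higher in FDC-E. Ltb fell while Ltbr was slightly higher, a call lost under both other scalings and without some single arrays. Cd27 fell without a passing change of Cd70, and Tnfrsf13b fell without one of Tnfsf13b. Tnfsf9 rose while both probe sets of Tnfrsf9 were dim, at 92.87 to 121.4 over the 5 arrays. The differences within pairs were not tested.

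**Figure D5:**
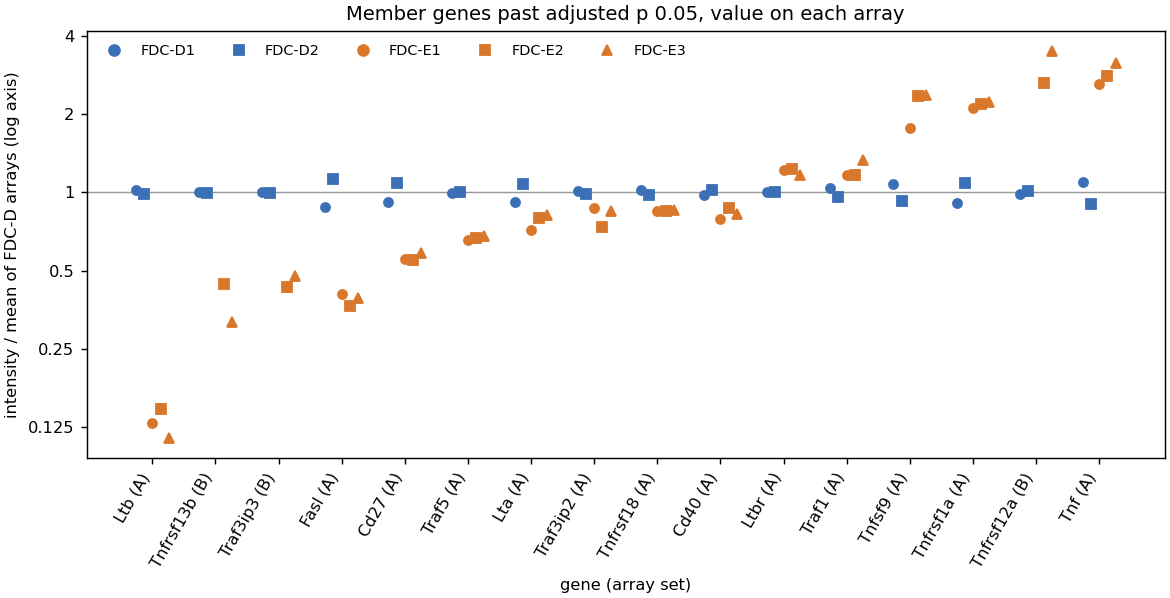
Intensity on each array divided by the mean of the FDC-D arrays of its set (log axis) for the 16 member genes that passed, at the probe set that stands for the gene, with the array set in parentheses. FDC-E points (orange) lie below 1 for the 10 genes at the left and above 1 for the 6 at the right, closest to the FDC-D points (blue) for genes in the middle such as Cd40 and Ltbr, whose calls were lost when some single arrays were left out.

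Of the Traf adaptors, Traf5 changed most. Traf5, which serves lymphocyte receptors such as Cd27 and Cd40, had 1168 and 1181 in FDC-D and 769.6, 786.6 and 795.8 in FDC-E. Both groups were tight and apart, and it fell 1.45-fold (log2 fold change -0.53, SE 0.070, adjusted p = 0.000423). Traf1, which NF-kB induces, had 514 and 474 against 577.9, 573.4 and 654.7 (log2 fold change 0.24, adjusted p = 0.0445). Its call was lost without FDC-D sample 1 (adjusted p = 0.112), FDC-D sample 2 (0.295) or FDC-E sample 3 (0.141) and under both other scalings (0.226 and 0.303), and narrowly with no filter (0.0578) and with adjustment over all 3 sets (0.0537).

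Traf2, which links TNF receptor 1 complexes to NF-kB, overlapped between the groups on both sets, with 266 and 281.5 against 289.1, 259 and 289.8 on set A and 261 and 233.9 against 229, 245.4 and 260.4 on set C. The 95% interval of its log2 fold change was -0.14 to 0.19 on set A. Traf6, which also serves Toll-like receptors, had log2 fold changes of 0.02, -0.03 and -0.13 at its 3 tested probe sets. The last of these had 298.5 and 286.7 in FDC-D and 259.8, 264.6 and 257.2 in FDC-E and did not pass (adjusted p = 0.156), although its groups were apart and it passed under quantile normalization (0.0285) and scaling to the median array (0.028). The probe sets of Traf4 disagreed. One on set A fell from 664.9 and 638.8 to 459.4 and 502.4 in FDC-E samples 1 and 3, with no value for sample 2 (log2 fold change -0.38, adjusted p = 0.00962), and was lost without FDC-D sample 1 (0.0792) or 2 (0.0519). The brighter Traf4 probe set on set A and the one on set C had log2 fold changes of -0.03 and 0.06 and did not pass.

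Of the 3 genes of Traf3-binding proteins, Traf3ip3 fell clearly. Traf3ip3, expressed in lymphocytes, had 411.3 and 408.2 in FDC-D and 176.9 and 195 in FDC-E on set B (1.84-fold, log2 fold change -0.88, SE 0.061, adjusted p = 2.09e-06), and its second probe set fell 1.83-fold, from 311.2 and 314.8 to 137.1 and 130.8. The second was above the filter on the FDC-D arrays alone, so it could be tested only because it was high there. Traf3ip2 (Act1), the adaptor of the interleukin 17 receptor, had 695.2 and 679.2 against 597.6, 507.1 and 582.8 (log2 fold change -0.26, adjusted p = 0.0405). That call was lost without any 1 of FDC-D sample 1 (0.207), FDC-D sample 2 (0.159), FDC-E sample 2 (0.0799) or FDC-E sample 3 (0.0714), and with no filter (0.0517). Traf3ip1, a protein of the cilium, had a log2 fold change of -0.13 on set B and did not pass (adjusted p = 0.0831), but passed under quantile normalization (0.0346) and scaling to the median array (0.0342).

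Partners of these receptors inside the cell moved in both directions. Of 34 tested genes of NF-kB and death signalling, 9 rose (26.5%) and 14 fell (41.2%), with a median log2 fold change of -0.08. Beside them, 23.1% of all tested probe sets on set A, 19.4% on set B and 9.50% on set C rose. The shares that fell were 17.9%, 17.0% and 8.73%. Nfkbia, Map3k14 and Map3k5 were counted on set C. The partners' share that rose was nearest to that of set A, and their share that fell was above that of each set. These differences were not tested. Each gene was counted at its brightest tested probe set, and probe sets of a gene could differ. The largest rises were of Tnip1, a partner of the NF-kB inhibitor A20 (2.72-fold), the NF-kB cofactor Nfkbiz (1.81-fold), the inhibitor Nfkbia (1.39-fold) and the subunit Rela (1.36-fold). Nfkbiz and Rela each passed at 1 of 3 probe sets, while Cflar, not counted as passing, rose at 2 of 4. The largest falls were of the apoptotic protease gene Casp8 (1.84-fold), the kinase gene Ikbkb (1.74-fold), the death-domain adaptor gene Tradd (1.65-fold) and the deubiquitinase gene Cyld (1.61-fold). Casp8 was above the filter on 1 FDC-E array, so it was tested only through its FDC-D arrays. Tradd passed at 1 of 2 probe sets. The 23 calls became 11 without FDC-D sample 2 and 15 without FDC-E sample 3. Of 18 tested genes that lymphotoxin and TNF are known to act on in stroma or that mark FDC, 16 rose and 1 fell. They were measured on sets A and B, whose shares of all probe sets are given above. Cxcl13, Madcam1, Mfge8, Clu, Prnp and Coch were already counted as FDC markers at the same probe sets, so this count partly repeats that one. No FDC-D array was above the filter for 7 of the 18 (Cxcl13, Sele, Glycam1, Il6, Ccl2, Sod2 and Coch), which could be tested only because they were high in FDC-E. Of the other 11, 9 rose and 1 fell. Among these, Cxcl1 had 1 FDC-D array above the filter, so it too was tested only through its FDC-E arrays. Cxcl1, a neutrophil chemokine, rose 18.6-fold, from 152.4 and 190.1 to 4390, 4913 and 4884, and the complement receptor gene Cr2, which B cells share, fell 1.34-fold (adjusted p = 0.017). The endothelial and fibroblast markers rose on the same arrays, and their part in the list's rise was not tested.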

How the data were processed

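Linear intensities, 1 per probe set and array, were used as the authors deposited them in a table for each design. How they were summarised and scaled was not stated in the sources used here. The number of arrays limits the precision. The set A array of FDC-E sample 2 lacked values for 893 probe sets, and these were fitted without it. Probe sets were named from GEO's platform annotation, matched by Entrez identifier to current symbols of RefSeq's GRCm38.p6 table. The members and lists were chosen with earlier results of these data known.

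Each set was fitted alone with limma 3.58.1 in R 4.3.3 (lmFit, then eBayes with a trended prior variance), two-sided, on log2(intensity + pseudocount), adding the 20th percentile of its positive values (A: 88.5, B: 81.2, C: 53.1). Folds on that scale understate changes of dim probe sets. Probe sets had to exceed an array's 40th percentile at least 2 times to be tested. Array controls were omitted. A probe set passed at a Benjamini-Hochberg adjusted p, over all tested probe sets of the set, under 0.05. An exact permutation test of 1 probe set cannot go below 0.1 with 2 against 3 arrays, or below 0.333 with 2 against 2. Alternatives were 2 other scalings, other pseudocounts and filters, an untrended variance, adjustment over all 3 sets, a replicate block and leaving out each array. The procedure was also run on simulated data, but the outcome is not given here, so no accuracy is claimed from it. Full values are given for every passing probe set and for ligands, receptors and Trafs tied to FDC. Up to 4 genes a direction are named from other lists.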

Additional observations from a re-analysis of the deposited data

How the results depend on the processing

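Of the 19 passing member probe sets, 12 passed under every alternative in which they could be tested, and 7 (Traf1, 1 of Traf4, Traf3ip2, 1 of Lta, Cd40, Ltbr and Tnfrsf18) were lost under at least 1; none changed sign. Of the 21 that did not pass, 4 passed under at least 1 alternative and 12 changed sign under at least 1. The set A rises numbered 5 as reported and 3 under quantile normalization, under scaling to the median array and when replicate numbers entered as a block (replicate block). Leaving out 1 array gave 3 to 5 rises and 4 to 11 falls on set A (10 as reported), 1 to 2 rises on set B, and 11 to 25 calls among the signalling partners (23 as reported). With array controls kept, an alternative chosen after seeing the data, set B had 2 rises and set C had 1, the additional one being Fas on each. The cause was not tested. The replicate block left 7 falls on set A and ended the calls of Ltbr (adjusted p = 0.0832), Traf1 (0.191), Cd40 (0.138), Tnfrsf18 (0.159) and Traf3ip2 (0.0604); set B shares only number 2 between the groups and could not be fitted so. Deviations of same-numbered arrays correlated at 0.0187 and 0.0501 on set A and at -0.241 and -0.101 on set C. With 2 FDC-D arrays their deviations mirror each other, so these correlations cannot settle whether the number is a pairing. The main fit did not use the number. A fit that leaves 1 array in a group assumes that it varies like the other group. Probe sets near background on all arrays, such as those of Tnfrsf11b and Tnfsf10, limit what can be said of their genes.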
